A study of Mus musculus with 16 samples.

Results

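The promoters described here had no H3K27ac island before differentiation and had one after 48 h of differentiation in control 3T3-L1 preadipocytes. They were chosen from lists of enriched regions (islands) that the authors called in each ChIP-seq library. An island of replicate A of empty-vector cells at 48 h was taken when it shared at least 1 bp with an island of replicate B at 48 h, shared no base with an island of either 0 h replicate, and touched a promoter. A promoter ran from 1000 bp upstream to 100 bp downstream of any transcript start of the mm9 annotation (GENCODE). Of 31292 islands in the list, 28364 were also in replicate B, 10776 of these touched a promoter, and 756 of these promoter islands (7.02%) met the rule. The other 10020 promoter islands overlapped a 0 h island and are called old promoters below. A further 5761 islands gained H3K27ac by the same rule away from promoters, which is 32.8% of the distal islands found in both replicates.

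3T3-L1 cells are mouse fibroblasts that can be turned into fat cells in culture. All 16 libraries came from these cells, which were induced 2 days after confluence with insulin, dexamethasone and isobutylmethylxanthine (the MDI cocktail). H3K27ac was profiled at 0 h and 48 h (Day 0 and Day 2) in cells with an empty retrovirus and in cells with a retrovirus for V5-tagged SETD5, with 2 biological replicates (A and B) in each of these 4 groups. The SETD5 virus used a weak LTR promoter, and its protein was made in addition to the cells' own SETD5. SETD5-V5 was profiled with a V5 antibody at 0 h and 6 h in replicates A and B, H3K4me1 at 0 h and 48 h with 1 library each, and endogenous SETD5 at 0 h and 6 h with 1 library each. The labels name the SETD-V5 virus for both H3K4me1 libraries and no virus for replicate A of SETD5-V5, whereas the study's text treats the H3K4me1 cells as untransduced and both V5 replicates as transduced. The markers of the line fitted the label, since 7 of 8 preadipocyte or fibroblast genes had a promoter island in both empty-vector replicates at both times (Cd34 had none at either time), and 0 of 18 macrophage, endothelial, muscle, osteoblast and hepatocyte genes did. Of these 18, 1 endothelial gene had a promoter island at 0 h only and 1 macrophage gene had one in some of these lists. The lists held between 2132 and 50276 islands and gave no read counts per island. Absence from a list means only that a region was below the caller's threshold. The study's reporting summary gives total reads per library. Each SETD5 H3K27ac library had more reads than the empty-vector library of the same letter and time. Each V5 library at 6 h had more than the 0 h library of its letter. The part of these depths in the shares below was not tested.

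H3K27ac is an acetyl mark of active promoters and enhancers, and H3K4me1 marks enhancers that are primed or active as well as the flanks of promoters. During fat cell formation, the C/EBP factors and PPARγ switch on genes for lipid storage, adipokines and insulin-driven glucose uptake, and the cells first pass through a round of division. SETD5 is a SET domain protein that was studied here as a repressor of this programme, together with the NCoR and HDAC3 co-repressors. Whether an island is present is a statement about a region passing a threshold, and the gain at 48 h was the rule itself and is given without a test.

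Of the 756 gained promoters, 603 were labelled by a protein-coding gene, 48 by a processed transcript, 44 by a pseudogene, 19 by a miRNA and 15 by a lincRNA. The islands ran from 200 to 31000 bp with a median of 2800 bp, which is also the median of the old promoters. Their scores were low within the list, since 68.5% of them scored below the list's median, against 19.3% of the old promoters. Sequences are shown for 2 sets of promoters, with 200 bases up to the base before the transcript start, 5′ to 3′ on the gene's own strand, read from the mm9 genome. The first 5 are well known fat cell genes among the gained promoters, and the other 5 are those with the highest scores among promoters that were in both (Gm12714, Alg9, Spnb5) or in neither (Clstn3, Nlrc5) of the SETD5 cell lists at 48 h. Spnb5 has 149 bases because an annotated exon lies further upstream, and Smoc1 is named only for the same reason. Capitals mark matches to the motif letters named after the sequences.
Plin1 (chr7:86877663-86877862, minus strand): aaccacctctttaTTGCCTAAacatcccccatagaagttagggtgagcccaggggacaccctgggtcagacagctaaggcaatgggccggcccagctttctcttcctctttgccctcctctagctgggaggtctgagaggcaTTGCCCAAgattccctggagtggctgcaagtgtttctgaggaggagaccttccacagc
Klf15 (chr6:90415098-90415297, plus strand): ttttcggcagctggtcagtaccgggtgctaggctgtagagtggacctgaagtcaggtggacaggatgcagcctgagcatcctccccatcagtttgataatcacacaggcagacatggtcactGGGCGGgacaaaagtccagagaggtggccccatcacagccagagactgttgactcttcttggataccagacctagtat
Retn (chr8:3655570-3655769, plus strand): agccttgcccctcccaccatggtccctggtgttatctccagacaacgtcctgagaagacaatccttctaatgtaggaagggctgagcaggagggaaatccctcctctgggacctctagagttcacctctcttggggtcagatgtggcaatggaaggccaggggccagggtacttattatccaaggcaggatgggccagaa
Adipoq (chr16:23146409-23146608, plus strand): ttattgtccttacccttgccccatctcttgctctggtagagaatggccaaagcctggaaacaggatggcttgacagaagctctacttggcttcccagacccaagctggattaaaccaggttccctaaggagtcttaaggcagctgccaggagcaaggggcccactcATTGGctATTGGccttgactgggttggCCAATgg
Slc2a4 (chr11:69761691-69761890, minus strand): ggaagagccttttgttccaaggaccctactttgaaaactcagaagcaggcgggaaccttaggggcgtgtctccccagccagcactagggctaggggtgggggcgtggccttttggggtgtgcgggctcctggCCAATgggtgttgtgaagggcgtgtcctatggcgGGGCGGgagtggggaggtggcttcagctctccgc
Gm12714 (chr11:59711676-59711875, plus strand): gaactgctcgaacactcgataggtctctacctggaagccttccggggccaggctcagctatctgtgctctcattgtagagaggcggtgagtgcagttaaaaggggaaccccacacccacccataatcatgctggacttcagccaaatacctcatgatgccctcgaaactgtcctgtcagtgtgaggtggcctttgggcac
Alg9 (chr9:50643476-50643675, plus strand): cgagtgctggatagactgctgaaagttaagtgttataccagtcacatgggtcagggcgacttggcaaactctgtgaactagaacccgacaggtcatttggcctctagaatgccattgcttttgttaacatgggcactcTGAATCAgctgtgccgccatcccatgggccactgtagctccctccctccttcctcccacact
Spnb5 (chr2:119887173-119887321, minus strand): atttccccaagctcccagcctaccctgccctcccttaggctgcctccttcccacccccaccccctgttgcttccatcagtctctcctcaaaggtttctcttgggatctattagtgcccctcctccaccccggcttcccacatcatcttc
Clstn3 (chr6:124383522-124383721, minus strand): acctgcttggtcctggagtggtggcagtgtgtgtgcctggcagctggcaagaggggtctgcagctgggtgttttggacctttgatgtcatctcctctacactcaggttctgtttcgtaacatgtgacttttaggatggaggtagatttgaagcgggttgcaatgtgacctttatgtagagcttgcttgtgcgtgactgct
Nlrc5 (chr8:96996463-96996662, plus strand): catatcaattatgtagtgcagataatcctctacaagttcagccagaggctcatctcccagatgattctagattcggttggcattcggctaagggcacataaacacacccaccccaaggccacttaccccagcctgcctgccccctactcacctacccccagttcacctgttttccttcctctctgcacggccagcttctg

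The letters searched on both strands were TTGCNNAA for C/EBP, TGANTCA for AP-1 and TGACGTCA for the cyclic AMP response element. So were AGAACA followed after 3 bases by TGT for the glucocorticoid receptor, GGGCGG for the GC box and CCAAT for the CCAAT box. The PPAR-RXR direct repeat was searched likewise and is given by name. TATAAA for the TATA box was searched on the gene's own strand only, in the last 50 bases. None of these letters contains another, although matches of different motifs may overlap. In the sequences shown, Plin1 held C/EBP letters that begin 187 and 58 bases before the start (positions -187 and -58). Adipoq held CCAAT letters at -34, -27 and -7, and Slc2a4 held CCAAT letters at -68 and a GC box at -34. Retn, Gm12714, Spnb5, Clstn3 and Nlrc5 held none of the motifs in these bases.

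The gained promoters were poor in CpG. Over the 1000 bases before the start of 602 protein-coding members, the median ratio of observed to expected CpG was 0.258 (quartiles 0.167 and 0.445), compared with 0.568 (0.390 and 0.723) in 9446 old promoters and 0.377 (0.201 and 0.608) at all 45960 protein-coding starts. Only 9.47% of gained promoters were CpG-rich (a ratio of at least 0.6 and at least 50% GC), compared with 35.3% of old promoters and 21.2% of all starts. The GC box, which SP1-family factors read, was in 38.9% of gained promoters, 71.7% of old promoters and 52.0% of all starts. Letters for C/EBP were in 40.5% of gained promoters and 33.7% of all starts, and those for AP-1 in 28.4% and 22.7%. CCAAT boxes differed little, at 77.1% and 74.5%. The rarer motifs were at 2.33% against 2.80% for the cyclic AMP response element, 2.16% against 1.33% for the glucocorticoid receptor, 0.997% against 0.500% for the PPAR-RXR repeat, and 2.49% against 2.18% for the TATA box. The promoters absent from both SETD5 lists had a median CpG ratio of 0.236 and C/EBP letters in 46.7% of 122, and those in both SETD5 lists had 0.266 and 39.3% of 410. These shares are descriptions of sequence and carry no test.

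**Figure D1:**
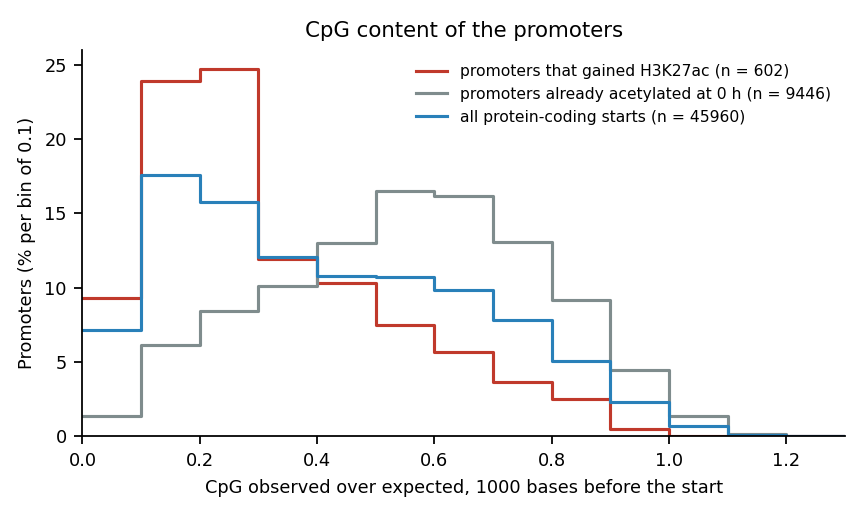
Share of promoters (y axis, percent per bin of 0.1) by the ratio of observed to expected CpG in the 1000 bases before the start (x axis), for the gained promoters, the old promoters and all protein-coding starts. The gained promoters peak between 0.1 and 0.3, to the left of the old promoters, whose median is 0.568.

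At 48 h, SETD5 cells had an island at most, but not all, of the gained promoters. The SETD5 list of replicate A overlapped 558 of 756 (73.8%, 95% Wilson interval 70.6 to 76.8) and that of replicate B 567 (75.0%, 71.8 to 78.0). At 0 h the SETD5 lists overlapped 186 (24.6%) in replicate A and 153 (20.2%) in replicate B, although the rule required 0 islands in the empty-vector lists at that time. Both 48 h libraries were thus above both 0 h libraries. The mean was 74.4% ± 0.842 at 48 h and 22.4% ± 3.09 at 0 h (SD, n = 2 each), a difference of 52.0 percentage points, with p = 0.333 in the two-sided exact permutation test, which is the smallest p that 2 against 2 libraries allow. With every H3K27ac list held to its 31292 highest-scoring islands, 871 promoters were gained. The SETD5 lists A and B then overlapped 64.1% and 63.5% of them at 48 h and 12.4% and 14.2% at 0 h. Of the old promoters, 99.1% and 99.2% overlapped SETD5 islands at 48 h and 98.5% and 97.5% at 0 h. The distal gained islands were overlapped at 68.9% and 72.0% at 48 h and 12.8% and 11.9% at 0 h. All intervals cover counting error over islands only.

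**Figure D2:**
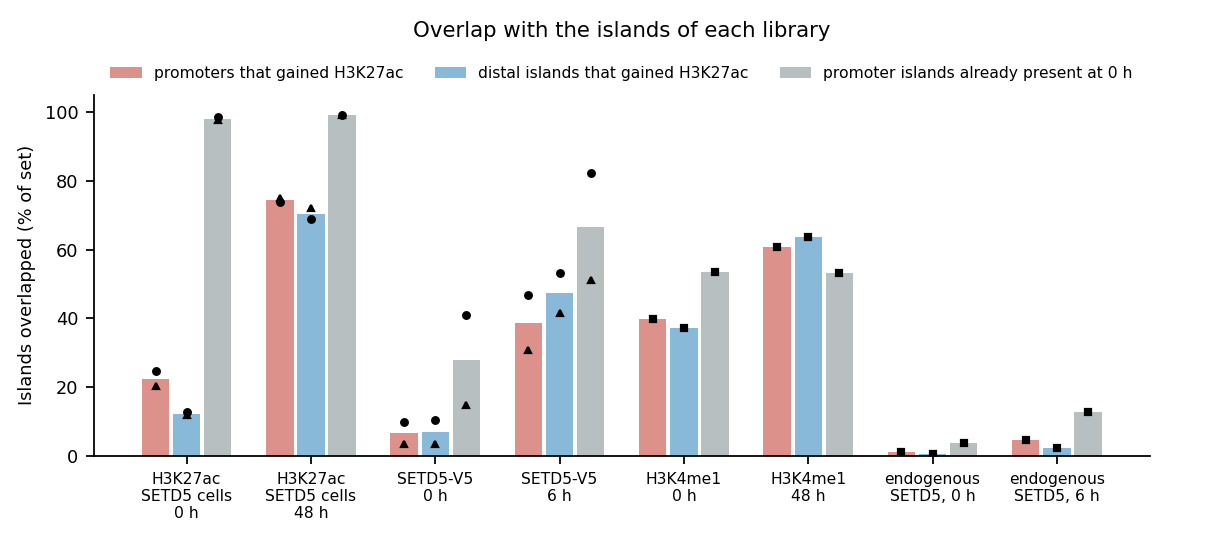
Percent of islands (y axis) that overlap an island of each library (x axis) for the gained promoters, distal gained islands and old promoters. Bars are means, circles are replicate A, triangles replicate B and squares single libraries; at 48 h in SETD5 cells the gained promoters stand at 73.8% and 75.0%, near the distal gained islands and below the old promoters.

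Because the members were chosen on the empty-vector lists, their share in those lists is fixed by the rule, and a fair reading of the SETD5 lists needs a control library that took no part in the choice. When promoters were chosen by empty-vector replicate A alone, 1166 gained an island. Of these, 76.0% had an island in the 48 h list of empty-vector replicate B, compared with 68.0% and 69.6% in the SETD5 lists A and B. When they were chosen by replicate B alone, 1169 gained an island, and 86.1% had one in empty-vector replicate A, compared with 75.9% and 77.6% in the SETD5 lists. In both readings the held-out control library was above both SETD5 libraries. At 0 h the order was the opposite, with 13.6% in the held-out control against 30.7% and 24.4% in SETD5 cells for the first set, and 24.3% against 37.2% and 31.4% for the second. The lists also differed in length. At 0 h the SETD5 lists A and B held 39949 and 36604 islands, and the empty-vector lists 33704 and 35460. At 48 h the SETD5 lists held 39068 and 39451, and the empty-vector lists 31292 and 33131. These held-out readings were not matched for list length. A comparison of 1 library with 2 allows no test at the usual threshold.

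**Figure D3:**
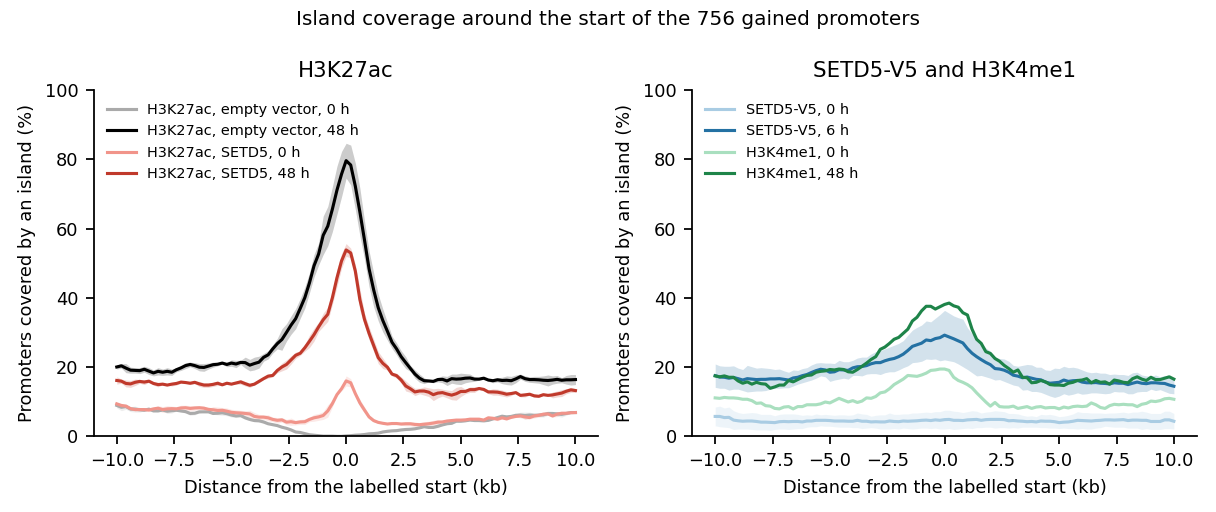
Percent of the 756 gained promoters (y axis) covered by an island at each distance from the labelled start (x axis, kb, upstream negative), with lines for the group mean and shading for the range of both replicates; H3K4me1 has 1 library. At the start itself, 79.6% were covered in empty-vector cells at 48 h, 53.8% in SETD5 cells at 48 h, 16.0% in SETD5 cells at 0 h and 29.2% by SETD5-V5 at 6 h.

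Both SETD5 lists at 48 h held 519 of the gained promoters (68.7%), 1 list held 87 (11.5%) and neither held 150 (19.8%). Of the old promoters, 98.7% were in both lists, 0.818% in 1 and 0.459% in neither. The share in neither list was 1.82% over all promoter islands and 23.8% over distal gained islands. The promoters in neither list had weaker control islands, since 83.3% of them scored below the median of the empty-vector list, compared with 61.8% of those in both lists. With the gained promoters divided by control score into 4 groups of 189, the numbers in neither list were 61, 39, 34 and 16 from the lowest scores to the highest. Of the 228 gained promoters with a SETD5 island at 0 h in either replicate, 1.75% were in neither list at 48 h, and of the other 528 it was 27.7%.

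Promoters of fat cell genes were on both sides of that division. Those absent from both SETD5 lists at 48 h included the promoters of Adipoq, Cfd and Slc2a4, which encode adiponectin, the secreted protease adipsin and the insulin-responsive glucose transporter. The Adipoq island (chr16:23143801-23147000) was 3200 bp long in empty-vector replicate A and 2800 bp in replicate B at 48 h, and neither SETD5 list and no SETD5-V5 list had an island there. The Slc2a4 island (chr11:69759601-69763800) measured 4200 and 2600 bp in the control replicates, and the Cfd island (chr10:79352601-79354800) 2200 bp in both. Neither of these promoters had an H3K4me1 island at 0 h or 48 h, whereas Adipoq had one of 2200 bp at 48 h. At Acsl1, which activates long-chain fatty acids, 1 of several promoters was gained and was in neither SETD5 list, with a control island of 4400 bp in replicate A and 2200 bp in replicate B and a 0 h island 800 bp away. Another Acsl1 promoter was already acetylated at 0 h, and the gene had a promoter island in both SETD5 lists at 48 h. None of these 4 islands was among the strongest islands, since 43.0% of the islands in the empty-vector list scored higher than Adipoq and 75.2% higher than Acsl1.

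Other lipid and adipokine promoters had an island in at least 1 SETD5 list at 48 h, and most of these islands were shorter than in controls. Some were present in SETD5 cells before differentiation. At 0 h, SETD5 cells had an island of 1400 bp at Fabp4 (replicate A) and at Klf15 (replicate B), and of 1800 bp at Agpat9 (replicate B). Plin1, Retn and Hp had none at 0 h. Plin1, the lipid droplet coat protein perilipin, had an island of 14400 bp in empty-vector replicate A and 8200 bp in replicate B (chr7:86874201-86888600), and 3200 and 3400 bp in SETD5 cells. The Plin1 island also touched the promoters of Pex11a and Wdr93. For Fabp4, the fatty acid binding protein of fat cells, the control islands were 15000 and 6600 bp (chr3:10202601-10217600) and the SETD5 islands 2200 and 3000 bp. Klf15, a Krüppel-like factor that promotes fat cell formation, had 12200 and 10600 bp in controls (chr6:90413801-90426000) and 4200 and 2600 bp in SETD5 cells. Both SETD5 libraries were below both control libraries at these 3 promoters. Where several SETD5 islands fell within a control island, the length given is that of the one with the largest overlap. All SETD5 islands together covered 5200 and 4600 bp of the Plin1 island, 3600 and 6000 bp of the Fabp4 island and 6800 and 4400 bp of the Klf15 island. If at least 50% of the control island had to be covered, Plin1 and Fabp4 would be in neither SETD5 list and Klf15 in 1. Read over the promoter window alone, the Klf15 promoter was in neither SETD5 list, so its SETD5 islands lay elsewhere in the broad control island. Retn, which encodes resistin, had 7000 and 5800 bp in controls (chr8:3652201-3659200), 1000 bp in SETD5 replicate B and none in replicate A. Agpat9, an acyltransferase of triglyceride synthesis, had 5000 and 3200 bp in controls and 1200 and 1400 bp in SETD5 cells. With at least 50% covered, Retn and Agpat9 would be in neither SETD5 list. Hp, encoding haptoglobin, went the other way in replicate B, with 3000 and 4600 bp in controls and 2800 and 5800 bp in SETD5 cells.

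Over the 519 promoters in both SETD5 lists, the SETD5 island was shorter than the control island in 367 (70.7%) within letter A and in 268 (51.6%) within letter B. It was longer in 115 and 193, and 230 (44.3%) were shorter in both letters. The median ratio of SETD5 to control length was 0.714 in A and 0.938 in B. At old promoters the shares shorter were 67.2% and 45.2% and the median ratios 0.833 and 1, and at distal gained islands the shares were 66.4% and 51.2%. The count of shorter islands at gained promoters was therefore near that of the other regions in both letters. The lists themselves differed in this measure, with a median island of 2800 and 2400 bp in the empty-vector lists A and B at 48 h and 2000 and 2200 bp in the SETD5 lists, and the part of this in the ratios was not tested.

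**Figure D4:**
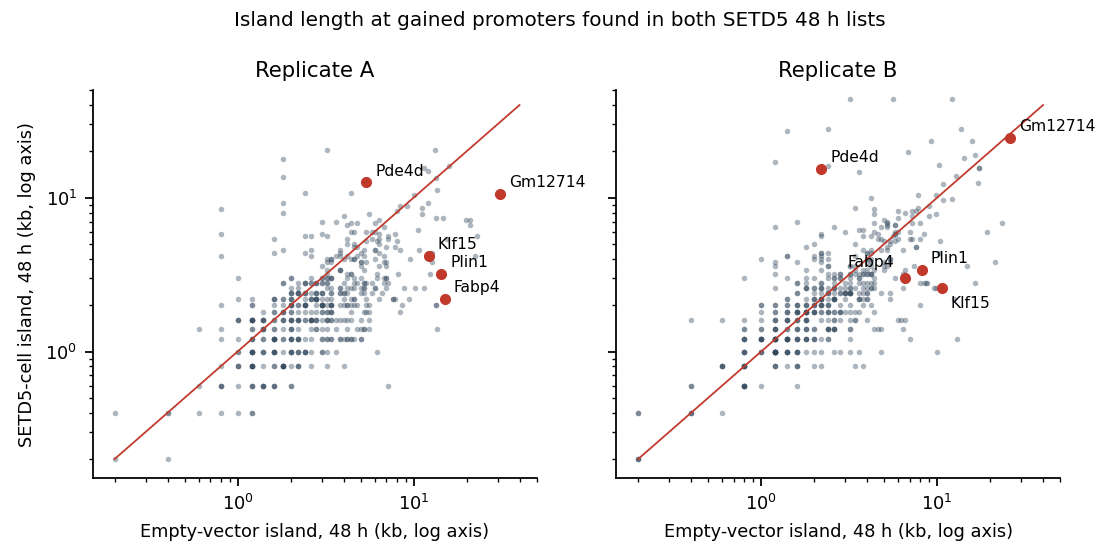
Length of the 48 h H3K27ac island in SETD5 cells (y axis, kb, log) against that in empty-vector cells (x axis, kb, log) for the 519 gained promoters in both SETD5 lists, by replicate; the line marks equal length. Klf15, Plin1 and Fabp4 lie below the line in both replicates, Pde4d lies above it in both.

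The highest-scoring gained promoters that SETD5 cells also held were broad. Gm12714, a noncoding transcript, headed the list with 31000 and 26000 bp in controls (chr11:59692601-59723600) and 10600 and 24600 bp in SETD5 cells. Alg9, a mannosyltransferase of N-glycan synthesis, had 14600 and 9000 bp (chr9:50638401-50653000) and 7400 and 7600 bp. The Alg9 island also touched the promoter of Ppp2r1b, and another Alg9 promoter had a 0 h island. Spnb5, a beta spectrin, had 11200 and 10800 bp (chr2:119880001-119891200) and 8600 and 9600 bp. Il15ra, the alpha chain of the interleukin-15 receptor, had 13600 and 17200 bp and 11200 and 15600 bp, and Syt12, a synaptotagmin, had 13400 and 23400 bp and 7400 and 6800 bp. AC124398.1 (a miRNA gene), Gm11963 (a processed transcript) and a U6 snRNA gene completed the first 8, with control islands in replicate A of 22400, 22800 and 21000 bp. In SETD5 cells at 0 h, replicate B had an island of 1400 bp at Il15ra and of 3000 bp at Syt12. These labels name only the annotated start that the island touched.

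The highest-scoring gained promoters absent from both SETD5 lists scored lower and most were shorter. Clstn3, a calsyntenin, had 14400 and 7800 bp in controls (chr6:124373401-124387800), and 12.3% of the islands in list A scored higher. Smoc1, a secreted calcium-binding protein of the matrix, had 13600 and 8800 bp (chr12:82124401-82138000), and Adig, which encodes the fat cell protein adipogenin, had 5200 and 3000 bp (chr2:158327001-158332200). A lincRNA gene named Nlrc5 in the annotation had 3600 and 2800 bp. The others of the first 8 were 2310001A20Rik, 1700025N21Rik, SNORA17 and Mirlet7c-2, with 5200, 3600, 9000 and 7200 bp in replicate A. Of the 36 gained promoters with islands of at least 10000 bp, 32 were in both SETD5 lists and 3 in neither, namely Clstn3, Smoc1 and Trim29, the last named after its values were seen.

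SETD5-V5 was at a minority of the gained promoters, and at more of them at 6 h than at 0 h. At 6 h the V5 lists overlapped 353 (46.7%) in replicate A and 233 (30.8%) in replicate B, and at 0 h 75 (9.92%) and 27 (3.57%). Both 6 h libraries were above both 0 h libraries, although the replicates of each time lay far apart. The means were 38.8% ± 11.2 and 6.75% ± 4.49 (SD, n = 2 each), a difference of 32.0 points with p = 0.333 in the exact permutation test, the smallest possible. The V5 lists also grew, from 16054 to 35573 islands in A and from 6666 to 27220 in B. With every V5 list held to its 6666 highest-scoring islands, and the H3K27ac lists to 31292, the shares of the 871 promoters then gained were 14.9% and 12.1% at 6 h and 5.51% and 4.02% at 0 h, a difference of 8.73 points. The old promoters carried more V5 islands than the gained ones, with 82.1% and 51.2% at 6 h and 40.9% and 14.8% at 0 h. At distal gained islands the shares were 53.2% and 41.7% at 6 h.

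The gained promoters with and without SETD5-V5 at 6 h were then read in the H3K27ac lists of SETD5 cells. Of the 215 with a V5 island in both replicates, 9.77% were in neither H3K27ac list of SETD5 cells at 48 h, and of the 385 with none, 28.3%. These groups also differed in the strength of the control island, with a median of 57.6% and 66.1% of list islands scoring higher, and in median length, with 3600 and 2400 bp. Within the 4 groups of control score, from lowest to highest, the shares with and without V5 were 23.1% of 39 and 36.7% of 120, 14.5% of 55 and 30.4% of 92, 7.69% of 52 and 23.7% of 97, and 0 of 69 and 18.4% of 76. Promoters with V5 were the lower in each group. Of the old promoters, 50.6% had V5 at 6 h in both replicates and 17.3% in neither. Distal gained islands showed 11.2% with V5 in both replicates and 37.5% with V5 in neither. Since islands are not replicates, these shares describe the libraries and carry no test.

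The 6 highest-scoring gained promoters with V5 at 6 h in both replicates and at 0 h in neither were Gm12714, Il15ra, Syt12, AC124398.1, Gm11963 and the U6 gene, all of them also in both SETD5 H3K27ac lists at 48 h by an overlap of 1 bp or more. With at least 50% of the control island covered, AC124398.1 and Gm11963 would be in neither, and read over the promoter window AC124398.1 would be in neither as well. Il15ra had V5 islands of 10400 and 4400 bp at 6 h, and Gm12714 7200 and 4400 bp. In all, 155 gained promoters (20.5%) had this V5 pattern, compared with 16.4% of the old promoters, and 7.74% of them were in neither SETD5 H3K27ac list. Endogenous SETD5 was seen at 10 gained promoters at 0 h (1.32%) and at 35 at 6 h (4.63%), compared with 3.87% and 12.9% of the old promoters. The difference between times was 3.31 points, with a 95% counting interval of 1.47 points on either side, from 1 library each.

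More of the gained promoters had an H3K4me1 island at 48 h than at 0 h. An H3K4me1 island was present at 301 (39.8%) at 0 h and at 459 (60.7%) at 48 h, a difference of 20.9 points with a counting interval of 3.53 points on either side, from 1 library per time. The old promoters stood at 53.5% and 53.2%, and the distal gained islands at 37.1% and 63.6%. At 271 gained promoters (35.8%) the mark was there at both times, at 188 (24.9%) at 48 h only, at 30 (3.97%) at 0 h only, and at 267 (35.3%) at neither. The old promoters fell into these groups at 43.5%, 9.70%, 10.0% and 36.8%. Promoters with the mark at both times were in neither SETD5 H3K27ac list in 14.0% of cases, and those with it at 48 h only in 28.2%. The share was 20.6% for those with the mark at neither time and 13.3% for the 30 with it at 0 h only. The highest-scoring promoters without the mark at either time were Klb, the beta-klotho co-receptor of fibroblast growth factors, Brp44l, a subunit of the mitochondrial pyruvate carrier, Klra9, a lectin-like receptor of natural killer cells, and Fam55d. Klb had 12800 and 9800 bp of H3K27ac in controls (chr5:65738201-65751000) and 4400 and 2600 bp in SETD5 cells, outside the promoter window itself. By an overlap of 1 bp or more, the 4 of them were in both SETD5 lists. Read over the promoter window, Klb and Klra9 would be in neither, and with at least 50% covered Klb and Brp44l would be in neither.

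The gained promoters were then read in named gene lists. Of 343 listed genes, 28 (8.16%) had a gained promoter, compared with 601 of 22380 protein-coding genes (2.69%). The lists were chosen for the biology of these cells and with earlier results of these data known. The part of this choice, and of the number of annotated starts per gene, in the difference was not tested. Adipokines and secreted fat cell proteins had 4 of 16 (Adipoq, Retn, Cfd, Hp), insulin and growth factor signalling 4 of 21 (Slc2a4, Igf1r, Fgfr1, Fgfr2), glucocorticoid and cyclic AMP responsive genes 3 of 26 (Pde4d, Pde4b, Crem), the cell cycle 4 of 40 (Ccnb2, E2f2, Cdc6, Mybl2), lipid storage 4 of 43 (Fabp4, Plin1, Acsl1, Agpat9) and chemokines and inflammatory genes 2 of 22 (Ptgs2, Csf3). The extracellular matrix had 3 of 42 (Col4a1, Col6a3, Col15a1), adipogenic transcription factors 2 of 32 (Klf15, Stat5b), and the circadian clock 1 of 17 (Rora). No gene of the preadipocyte and anti-adipogenic list (0 of 29), of the actin cytoskeleton (0 of 20) or of cholesterol synthesis (0 of 18) had one. In lists of this size, counts of 0 or 1 lie near the 2.69% of all protein-coding genes. Most adipogenic transcription factors, 26 of 32 (81.25%), had a promoter island at both times in both empty-vector replicates without a gained promoter, Pparg and Cebpa among them. That share was 42.6% over all protein-coding genes and between 54.5% and 88.9% in the other lists. Of the 28 gained promoters of listed genes, 6 (21.4%) were in neither SETD5 list at 48 h, 8 in 1 and 14 in both, and the share in neither over all gained promoters was 19.8%. In 11 of the 28, another promoter of the gene already had an island at 0 h, as at Acsl1, Stat5b, Pde4d, Pde4b, Crem, Igf1r, Fgfr1, Fgfr2, Col4a1, Col6a3 and Col15a1. The values given for these genes are those of the gained promoter only.

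Of the 7 gained promoters in the 2 signalling lists, 6 were in both SETD5 lists, with islands that were longer than the controls at some and shorter at others, and Slc2a4 was in neither. Pde4d and Pde4b encode phosphodiesterases that break down cyclic AMP, and Crem encodes a factor that binds its response element. Pde4d measured 5400 and 2200 bp in controls and 12600 and 15400 bp in SETD5 cells, so both SETD5 libraries were above both control libraries, with V5 islands of 13800 and 9600 bp at 6 h. Pde4b had 4800 and 2200 bp in controls and 2800 and 4200 bp in SETD5 cells, and V5 islands of 23800 and 29200 bp. Crem had 2400 and 2200 bp and 2800 and 2600 bp. Igf1r, the receptor of insulin-like growth factor, had 3800 and 3600 bp in controls and 1200 and 3000 bp in SETD5 cells. Fgfr1 and Fgfr2 encode fibroblast growth factor receptors. The Fgfr1 island had 3800 and 3600 bp in controls and 3400 and 1000 bp in SETD5 cells, and that of Fgfr2 3000 and 1200 bp and 7000 and 2600 bp. The SETD5 island was thus shorter than the control in both letters at Igf1r and Fgfr1 and longer in both at Pde4d, Crem and Fgfr2. The Fgfr2 control islands were weak, with 80.2% and 98.9% of list islands scoring higher in A and B. A 0 h island lay 800 bp from the Fgfr2 member. With at least 50% covered, Igf1r and Fgfr1 would be in 1 SETD5 list, and read over the promoter window Fgfr2 would be in 1. These 3 receptor promoters had V5 islands at 6 h in both replicates, and Fgfr1 had them at 0 h as well. The prostaglandin synthase gene Ptgs2 had 800 bp in both controls and 1200 and 3000 bp in SETD5 cells. Its control islands were weak, with 98.7% and 87.1% of list islands scoring higher in A and B. At 0 h, SETD5 replicate A already had an island of 1200 bp at Ptgs2 and of 1600 bp at Pde4b.

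Cell cycle promoters had short islands that scored below the median of the list. The 4 listed ones measured 800 to 2000 bp in the control lists, and each was in exactly 1 SETD5 list at 48 h (Cdc6 in neither with at least 50% covered). At 0 h, SETD5 replicate B had an island of 2000 bp at Cdc6, where it had none at 48 h. The gained promoter of the collagen gene Col6a3 was in neither SETD5 list. At 6 h, SETD5-V5 islands of 3200 and 5400 bp overlapped it and covered 1000 and 2000 of its 3600 bp. This member covered no transcript start. The gained promoter of Rora, a nuclear receptor of the clock, was in neither and had no island in any V5, H3K4me1 or endogenous SETD5 list. Both genes had an island at another promoter in both SETD5 lists at 48 h, and Rora had H3K4me1 at another promoter at 48 h. The gained promoter of Col4a1 lay within V5 islands of 273600 and 220400 bp at 6 h, which span far more than its promoter. Col4a1 and Col15a1 were each in 1 SETD5 list and would be in neither with at least 50% covered. Stat5b, a transcription factor of cytokine and growth hormone signalling, was in both SETD5 lists, and in 1 with at least 50% covered.

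**Figure D5:**
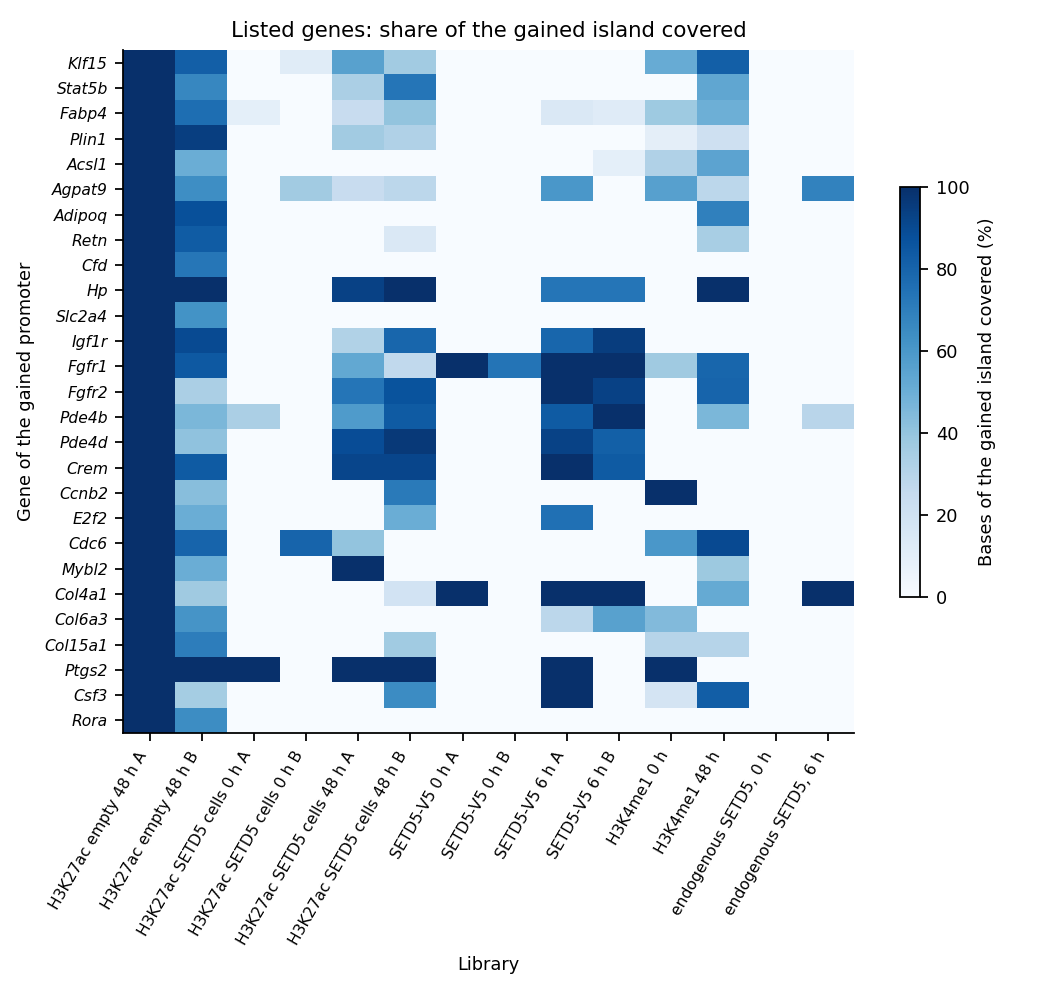
Percent of each member island that is covered by islands of each library (colour, 0 to 100), for the listed genes named here (rows) in 14 lists (columns, A and B are replicates). The gained islands of Adipoq, Cfd, Slc2a4 and Rora are blank in all SETD5 and SETD5-V5 columns. Pde4d, Crem and Fgfr2 are mostly covered in both SETD5 48 h and both SETD5-V5 6 h columns. Igf1r is mostly covered in these columns except SETD5 48 h A, where 1200 of 3800 bp were covered.

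Many gained promoters were not the first acetylated start of their gene. Of the 603 protein-coding labels, 216 had no other annotated promoter, 180 had others without a 0 h island, and 207 had another promoter that already carried an island at 0 h. These 3 groups were in neither SETD5 list at 18.5%, 21.1% and 21.3%. The islands covered a transcript start in 640 cases and touched only the flank of the promoter window in 116. A 0 h island lay within 1000 bp of 33 members and within 5000 bp of 183. In all, 812 genes were touched, and 27 of the 718 labelled genes had 2 or more members.

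At the limits of the rule, members with the least overlap with replicate B shared 200 bp (Gm12966, Gm15459 and Gm3531), and the nearest promoter islands left out for want of replicate B lay 0 to 600 bp from its islands. Members closest to a 0 h island abutted one (AL683804.1, Agpat3 and Cpsf4l), and those left out with the least 0 h overlap shared 200 bp (Aqp2, Arpc1b and Bcl2l10). The smallest promoter overlaps were 1 bp at Card14 and 4 bp at Ica1 and Mt4. Another 251 promoter islands of replicate A without a 0 h island were not in replicate B, and 389 promoter islands of both 48 h replicates had an island in 1 of the 0 h replicates only. The count of members thus rests on both replicates, with 1166 from replicate A alone and 1169 from replicate B alone.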

How the data were processed

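The authors mapped the ChIP-seq reads to mm9, with Bowtie2 named in the submitters' processing notes, and called islands in each library separately with SICER, in windows of 200 bp. How input was used for each list is not given in the sources used here. Each deposited file gives, per the authors' caller, the position (other values: chromosome, start and end in bp) and the score of every island, which was used only to rank islands within a list. No read counts per island are in the lists, the study gives total reads per library only, and precision is limited by the number of libraries. No 2 lists of the 16 were identical, and columns of other samples were 0.

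Coordinates are 1-based on mm9 (NCBIM37), with GENCODE genes of that build. The members and gene lists were chosen with earlier results of these data known. A member was labelled by its protein-coding gene, if any, whose start was nearest to the island's centre. Named promoters were the 8 highest-scoring in both and in neither SETD5 48 h list, the 6 highest with V5 at 6 h in both and at 0 h in neither, the 4 highest without H3K4me1, the 3 nearest to each limit of the rule, and all listed genes, except 1 that is not reported here. An overlap counted from 1 bp. Groups of 2 libraries were compared by exact permutation test, two-sided, and shares have 95% Wilson intervals. Whether the replicate letters pair the libraries is not known. Over members, the deviations of the letters correlated between times at -0.0185 (H3K27ac in SETD5 cells) and 0.0132 (SETD5-V5). Such a correlation cannot show an offset shared by all regions. The V5 list of replicate A was longer than that of B at both times, with 16054 and 6666 islands at 0 h and 35573 and 27220 at 6 h. The overlap code was tested on simulated data and found the same 756 members as bedtools 2.31.1. Python 3.11.15, numpy 2.4.6, scipy 1.17.1, matplotlib 3.10.9 and samtools 1.23.1 were used. Alternatives covered overlap, score, promoter window, transcript type, anchor replicate, distance to 0 h islands, merging, promoter windows in place of islands, replicates left out, a replicate block and, chosen after seeing the data, equal numbers of islands per antibody.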

Additional observations from a re-analysis of the deposited data

How the results depend on the processing

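The difference between 48 h and 0 h in SETD5 cells lay between 41.3 and 54.2 points and the SETD5-V5 difference between 6 h and 0 h between 8.73 and 39.9 points in every alternative run, with p at 0.333 in all but the replicate block. With that block, which takes differences within a replicate letter, both differences were unchanged at 52.0 and 32.0 points, with p = 0.5 in the exact sign-flip permutation test, the smallest that 2 pairs allow. Leaving out 1 library gave 41.3 to 54.2 points for SETD5 cells and 24.1 to 39.9 for SETD5-V5. The number of members was 1324 with an overlap of at least 50%, 479 with protein-coding transcripts only, and 1166 to 1169 without 1 empty-vector replicate. The share in neither SETD5 list was 25.8% with an overlap of at least 50%, 18.3% with islands at or above the median score, 20.8% with promoters from 2000 bp upstream to 500 bp downstream, 28.8% over promoter windows in place of islands, 30.1% with equal numbers of islands, and 17.7% to 26.2% with 1 library left out. The H3K4me1 difference was 15.5 points above the median score and 16.8 to 17.7 without 1 empty-vector replicate. For endogenous SETD5 it was 7.18 points with an overlap of at least 50%, 1.38 with equal numbers and 2.65 to 3.77 without 1 empty-vector replicate. Listed genes with a gained promoter numbered 59 at 50% overlap, 47 above the median score and 34 to 40 without 1 empty-vector replicate. Over 300 bases, the share of gained promoters relative to all starts was 1.39 for C/EBP and 1.50 for AP-1, compared with 1.20 and 1.25 over 1000 bases. For the PPAR-RXR repeat it was 3.36 on 4 gained promoters over 300 bases and 1.99 on 6 over 1000. Of 48 named promoters, 6 changed the number of SETD5 48 h lists when promoter windows were read and 15 with an overlap of at least 50%, Fabp4, Plin1, Klf15 and Retn among the latter. A list cannot show a change in level above the threshold, and 2 libraries per group cannot reach p under 0.333.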

Other observations

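A few further promoters are named here after their values were seen, most of them because they were in neither SETD5 list at 48 h, as were 19.8% of all gained promoters. They come from no list and show nothing of how often fat cell genes were absent. The promoters of Niacr1, Gpr81, Mrap, Tusc5 and Sort1 were in neither list. Niacr1 and Gpr81, receptors for nicotinic acid and lactate that restrain lipolysis, had control islands of 3800 and 3200 bp in replicate A and lay next to each other on chromosome 5. Mrap, the accessory protein of the melanocortin receptors, had 4400 bp, Tusc5 5600 bp and Sort1, which encodes the sorting receptor sortilin, 3600 bp. In contrast G0s2, an inhibitor of adipose triglyceride lipase, had 9800 bp and was in 1 SETD5 list. The gained promoter of Vegfa, a gene with another promoter acetylated at 0 h, was in neither list, and SETD5-V5 was there at 0 h and 6 h in both replicates.

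Members of multigene families were also among the gained promoters. Klra7 and Klra9 had 2 members each, and Klra2, Klra5 and Klra10 had 1 each, all on chromosome 6, while Ear1, Ear2, Ear10 and Ear11 lay on chromosome 14. Of these 11 members, the islands of Klra2 and 1 of Klra7 were in neither SETD5 list at 48 h. These genes have near-identical copies, between which the placing of reads is uncertain, and so are the values here.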
